A study of Mus musculus with 4 samples.

Results

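Collagen chain genes were described here across the pancreas of Ifrd1 null and wild-type mice injured with cerulein. The members were all genes whose array annotation gave exactly 1 symbol of the form Col, number, a, number. There were 44 of them among 22180 genes with a usable row, and where a gene had several rows the one with the highest mean over the arrays was kept. By type number, 11 encode fibrillar chains, 6 encode the type IV chains of basement membranes and 27 encode other chains. The data are 4 Affymetrix arrays of total RNA from whole adult pancreas, 2 from mice labelled IFRD1 null and 2 from wild-type mice, each labelled a biological replicate. All mice were 8 weeks old and had received cerulein by intraperitoneal injection at 100 µg/kg, 6 times a day on alternate days, with tissue taken on day 5. Cerulein is a peptide that acts like the gut hormone cholecystokinin, and in repeated high doses it drives acinar cells, the source of digestive enzymes, into injury. Ifrd1 encodes a transcriptional co-regulator. How the null allele was made, whether the deletion is limited to some cells, and the litter of each mouse are not given in the sources used here, and untreated pancreas is not analysed here.

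Collagens are secreted proteins of 3 chains wound into a triple helix. Types I, III and V join into the banded fibrils of interstitial matrix, type IV forms the sheet-like network of basement membranes under acini, ducts and vessels, and type VI forms beaded filaments close to cells. In the pancreas most fibrillar collagen is made by stellate cells and fibroblasts, which are activated during pancreatitis and remove or remodel the matrix as the tissue recovers.

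Values are the authors' deposited levels, read as log2. Ifrd1 itself was at 6.99 and 7.09 in Ifrd1 null arrays 1 and 2, against 9.04 and 9.07 in wild-type arrays 1 and 2. Both null arrays were thus below both wild-type arrays, as labelled. The difference was -2.02 ± 0.11 (log2, SE), with an adjusted p of 0.138 in limma, and of 0.0313 with arrays centred on their medians. Xist, the RNA of the inactive X chromosome, was at 10.15 and 9.58 in the null, against 2.56 and 3.54 in wild type. The Y-linked gene Uty was at 2.25 and 2.36 in the null, against 6.41 and 6.40 in wild type. Genotype and the sex read from these genes cannot be told apart in this series. The array medians lay at 4.15 and 4.13 in the null and at 4.11 and 4.08 in wild type. Levels under the array median may be background. Of the 44 members, 32 were above that median on all 4 arrays and 6 were below it on all 4. Above the median on every array were 9 of 9 measured acinar markers and 14 of 14 stellate cell and fibroblast markers. So were 12343 of all 22180 genes and 10 of 10 macrophage markers, so these counts do not identify the tissue.

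No collagen chain differed between genotypes past the threshold. In limma's test over all genes with Benjamini-Hochberg adjustment, 0 of 44 members had an adjusted p under 0.05, where 0.00451% of all genes did, and the lowest adjusted p of a member was 0.721. At unadjusted p under 0.05 there were 2 members lower in the null, Col4a2 and Col6a5 (background 3.63% of all genes), and 1 higher, Col2a1 (background 3.27%). Col4a2 and Col6a5 were in this count under every alternative that kept all 4 arrays. Col2a1 was not in it with quantile normalization, median centring, cyclic loess, the replicate number as a block or without genes holding identical values. Fits with an array left out hold 1 array in a group and were not compared at this threshold. With a trend and robust variance model limma gave 0 members at an adjusted p under 0.05 as well. It gave 4 members at unadjusted p under 0.05, beside 1470 of all 22180 genes. Of the 44 members, 16 were lower in the null, against 52.6% of all genes. Of the 32 members above the array median on all 4 arrays, 14 were lower, against 64.5% of such genes. The median difference over the members was 0.06 on the log2 scale, beside -0.01 over all genes. The groups did not overlap for 4 members that were lower in both null arrays (19.7% of all genes): Col4a2, Col4a5, Col6a5 and Col17a1. They did not overlap for 8 that were higher in both (16.1%): Col2a1, Col4a4, Col13a1, Col16a1, Col24a1, Col25a1, Col26a1 and Col28a1. With arrays centred on their medians the counts were 8 lower and 7 higher, and with quantile normalization and cyclic loess 4 lower and 10 higher. The shares over all genes were not counted under these scalings, so the changes cannot be assigned to the collagens. Centring also moved the median difference over all genes, to -0.062 from -0.012 as deposited.

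**Figure D1:**
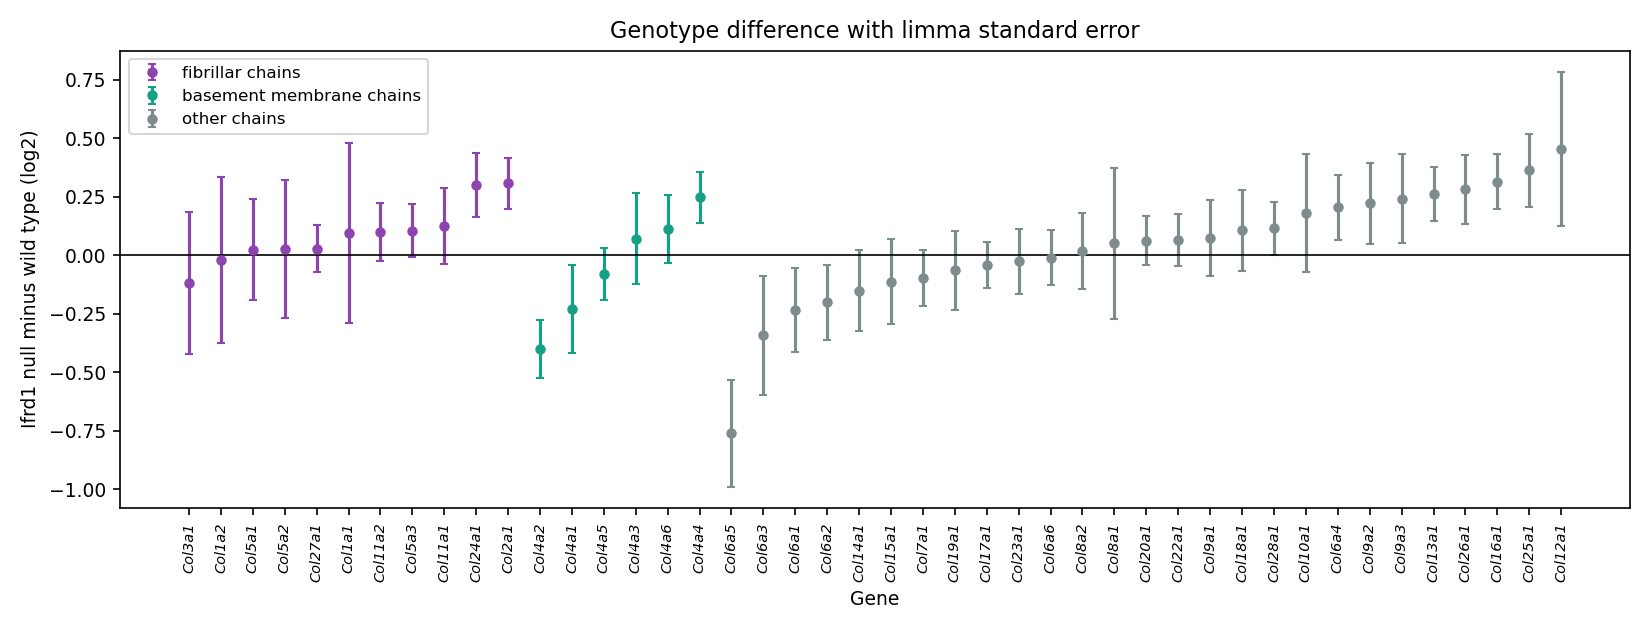
Difference between Ifrd1 null and wild type (log2, vertical axis) for each of the 44 collagen chain genes, ordered by size within fibrillar, basement membrane and other chains; points are group differences (2 arrays each) and bars are limma's standard errors. Col6a5 and Col4a2 lie furthest below 0 relative to their bars, and the bars of Col1a1, Col1a2 and Col12a1 are among the widest.

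Of the 11 fibrillar chains, 5 set the null arrays apart from each other rather than from wild type. For these type I, III and main type V chains, Ifrd1 null 1 was the highest array and Ifrd1 null 2 the lowest. Both wild-type arrays lay close together in between. Some chains of other classes had wide gaps between the null arrays too, such as Col12a1 (0.94, log2) and Col8a1 (0.90). Col1a1, which encodes the major chain of type I collagen, stood at 10.98 and 9.88 in null arrays 1 and 2, against 10.27 and 10.40 in wild-type arrays 1 and 2. Null 1 was thus 2.14-fold above null 2, and the wild-type arrays differed by 0.12 on the log2 scale. The genotype difference was 0.09 ± 0.39 (log2, limma SE, n = 2 each), with a 95% interval of -0.94 to 1.12.

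Col1a2, the partner chain of type I collagen, had levels of 10.01 and 9.01 in the null and 9.48 and 9.57 in wild type. It showed the same order of arrays as Col1a1, with null 1 2.01-fold above null 2. A second row for Col1a2 had this order as well, at 7.34 and 6.59 in the null and 6.97 and 6.98 in wild type. Col3a1, the single chain of type III collagen, which is prominent in early repair matrix, was at 10.64 and 9.79 in the null and at 10.36 and 10.32 in wild type. Its genotype difference was -0.12 ± 0.30 (log2, SE), and the gap between the null arrays was 0.85.

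Type V collagen sits inside type I fibrils and limits their width. Col5a1 was at 7.67 and 7.10 in the null and at 7.37 and 7.35 in wild type, and Col5a2 was at 7.14 and 6.31 in the null and at 6.74 and 6.66 in wild type. Both had null 1 on top and null 2 at the bottom, and their genotype differences were 0.02 ± 0.22 and 0.03 ± 0.30 (log2, SE). The third type V chain, Col5a3, did not follow them: it was at 5.88 and 5.72 in the null and at 5.67 and 5.72 in wild type. A second Col5a1 row lay below or near the array median, at 3.949 and 3.993 in the null and 3.942 and 3.997 in wild type, and showed no gap of that kind.

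The signs of the group differences for these chains are not settled. Col1a2 was at -0.02 as deposited, at 0.047 after quantile normalization and at 0.069 after cyclic loess. Col5a1 and Col5a2 were at -0.026 and -0.022 with arrays centred on their medians. The order of arrays held under all 3 of these scalings for Col1a1, Col1a2, Col3a1, Col5a1 and Col5a2, and the Col1a1 gap between null arrays ranged from 1.05 to 1.13. Without null 2, Col1a1 was at 0.64, Col1a2 at 0.48, Col3a1 at 0.31, Col5a1 at 0.31 and Col5a2 at 0.44 (log2, null 1 minus the wild-type mean). Without null 1 the values were -0.46, -0.52, -0.55, -0.26 and -0.38 in the same gene order.

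**Figure D2:**
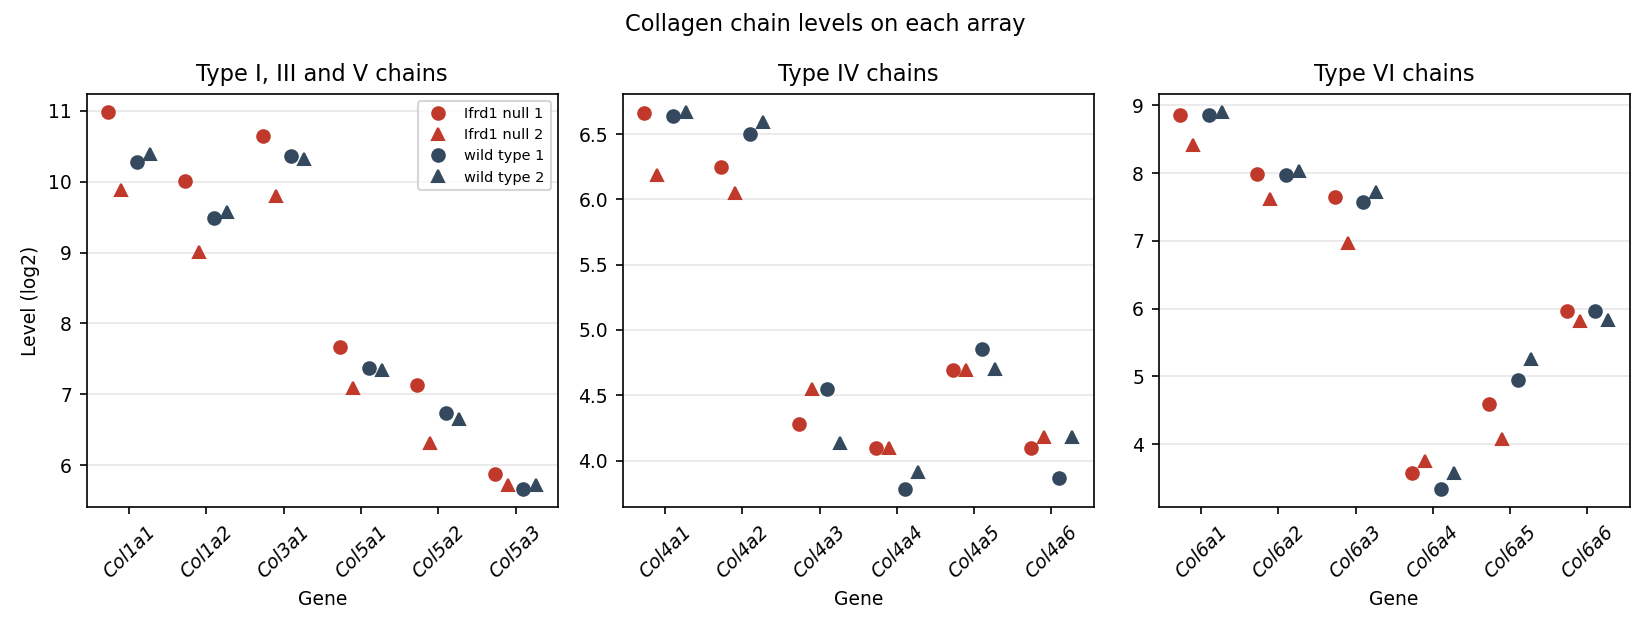
Level (log2, vertical axis) of type I, III and V chains, type IV chains and type VI chains on each array; red symbols are Ifrd1 null arrays 1 and 2, dark symbols to their right are wild-type arrays 1 and 2, and levels are to be read within a gene, not between genes. For Col1a1 the null arrays stand at 10.98 and 9.88 around the wild-type values of 10.27 and 10.40, while for Col6a1 null 1 (8.86) lies with wild type and null 2 (8.42) lies below.

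Other fibrillar chains are known mainly from cartilage or are widespread at low levels. Col2a1, the cartilage fibril chain, was at 4.85 and 4.83 in the null and at 4.60 and 4.47 in wild type. Both null arrays were higher, by 0.31 ± 0.11 (log2, SE, limma unadjusted p = 0.041, adjusted p = 0.721), close to the array medians. Col24a1 was also higher in both null arrays, at 4.26 and 4.36 against 3.88 and 4.14 in wild type, with 1 of 4 arrays below its median. Col11a2 was at 5.19 and 5.17 in the null and at 4.97 and 5.19 in wild type. Col11a1, below the median on every array, was at 3.53 and 3.67 in the null and at 3.65 and 3.30 in wild type. Col27a1 held the value 5.29 on null 2 and on both wild-type arrays and 5.35 on null 1, so its difference of 0.03 rests on 1 array. Identical values on 2 or more arrays occurred in 10 of the 44 members and in 14.1% of all genes.

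Promoter sequences are shown for the fibrillar genes with the wide null gap that the RefSeq promoter table holds (Col1a2, Col3a1 and Col5a1). The promoter of Col6a1, a gene without that order of arrays in the deposited values, is shown as well. Each is the 250 bases before the annotated start, 5′ to 3′ on the gene's strand, build GRCm38.p6. Capitals mark matches on either strand to the letters CCAAT, known as the CCAAT box. They also mark the GC box, to which Sp1-like factors bind, searched as GGGCGG. The third motif marked is the TATA box, searched as TATAAA. No 2 matches overlap here.
Col1a2, chr6:4505368-4505617, plus strand: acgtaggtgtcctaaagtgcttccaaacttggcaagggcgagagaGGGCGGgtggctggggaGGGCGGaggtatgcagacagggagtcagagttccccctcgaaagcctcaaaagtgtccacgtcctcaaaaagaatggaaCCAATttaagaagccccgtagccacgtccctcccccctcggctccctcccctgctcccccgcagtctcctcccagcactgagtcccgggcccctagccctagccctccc
Col3a1, chr1:45311288-45311537, plus strand: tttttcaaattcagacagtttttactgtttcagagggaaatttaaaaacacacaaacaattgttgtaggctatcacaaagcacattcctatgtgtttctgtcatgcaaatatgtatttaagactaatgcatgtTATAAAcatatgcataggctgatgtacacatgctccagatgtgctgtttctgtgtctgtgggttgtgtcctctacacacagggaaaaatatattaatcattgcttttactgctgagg
Col5a1, chr2:27886175-27886424, plus strand: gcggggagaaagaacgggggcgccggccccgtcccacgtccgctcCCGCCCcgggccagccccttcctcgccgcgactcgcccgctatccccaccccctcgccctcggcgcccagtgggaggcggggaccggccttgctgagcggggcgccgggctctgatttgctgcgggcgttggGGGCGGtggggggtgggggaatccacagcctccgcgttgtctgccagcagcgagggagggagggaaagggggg
Col6a1, chr10:76726045-76726294, minus strand: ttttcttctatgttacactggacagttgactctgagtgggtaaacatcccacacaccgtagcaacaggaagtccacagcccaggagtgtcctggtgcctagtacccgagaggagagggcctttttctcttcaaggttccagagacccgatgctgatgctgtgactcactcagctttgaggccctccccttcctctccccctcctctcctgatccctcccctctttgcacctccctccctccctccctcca
The 3 fibrillar promoters shared no single one of these motifs. Col1a2 held a CCAAT box starting 109 bases before the start and a pair of GC boxes, Col3a1 a TATA box 117 bases before it, Col5a1 a pair of GC boxes, and Col6a1 held none of the 3. Over the 35 members with a promoter entry, 12 held a CCAAT box, 21 a GC box and 5 a TATA box in that window. Over the 16990 measured genes with an entry, the shares were 35.6%, 43.2% and 11.9%, and over all 32851 promoter windows of that length 33.8%, 32.7% and 12.4%. A match describes these letters only.

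Among the basement membrane chains, Col4a2 and Col4a5 were lower in both null arrays, and the others differed in sign and array order. For Col4a5 the margin was narrow, at 4.697 on both null arrays against 4.701 in wild type 2. Type IV collagen is made as fixed trimers, and the one built from Col4a1 and Col4a2 is the widespread form. Col4a2 was lower in both null arrays, at 6.25 and 6.05 against 6.50 and 6.59 in wild type, and the groups did not overlap. The difference was -0.40 ± 0.12 (log2, SE, 1.32-fold lower, limma unadjusted p = 0.0271, adjusted p = 0.721), with a 95% interval of -0.73 to -0.07. It ranged from -0.50 to -0.30 when any 1 array was left out.

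Col4a1, its partner, was at 6.66 and 6.19 in the null and at 6.64 and 6.67 in wild type. Null 1 thus lay with the wild-type arrays and null 2 below them, so the groups overlapped, and the difference was -0.23 ± 0.19 (log2, SE). The genes Col4a1 and Col4a2 lie head to head on chromosome 8, and their annotated starts in the RefSeq promoter table are 21 bases apart on opposite strands. Against the wild-type mean, Col4a1 and Col4a2 together averaged -0.15 in null 1 and -0.48 in null 2.

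The remaining type IV chains belong to trimers of specialised membranes such as that of the kidney glomerulus. Col4a3 was at 4.28 and 4.55 in the null and at 4.55 and 4.13 in wild type. Col4a4, below the median on every array, was at 4.096 on both null arrays, against 3.78 and 3.91 in wild type. These chains lay near or below the array medians, and all 4 of the set Col4a3, Col4a4, Col4a5 and Col4a6 held a value shared by 2 or more arrays. Col4a5 and Col4a6 are the only members on the X chromosome, while the other 42 are autosomal. Col4a5 was at 4.697 on both null arrays, against 4.85 and 4.701 in wild type, and Col4a6 was at 4.09 and 4.18 in the null and at 3.87 and 4.18 in wild type. Their differences were -0.08 ± 0.11 and 0.11 ± 0.15 (log2, SE), neither larger than its error.

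Of the 6 type VI chains, Col6a1, Col6a2 and Col6a3 had null 2 alone below wild type in the deposited values. Col6a4 and Col6a5 did not share that pattern. Col6a6 had it only narrowly, with null 2 at 5.816 against 5.835 in wild type 2. The chains Col6a1, Col6a2 and Col6a3 make up the classical type VI trimer. Col6a1 was at 8.86 and 8.42 in the null and at 8.86 and 8.90 in wild type. Col6a2 was at 7.99 and 7.62 in the null and at 7.97 and 8.04 in wild type. Col6a3 was at 7.64 and 6.97 in the null and at 7.57 and 7.72 in wild type. In the deposited values of all 3 genes null 1 lay with the wild-type arrays and null 2 alone was lower. The place of null 1 depended on the scaling. Averaged over the 3 genes, null 1 was at 0.07 with quantile normalization, 0.09 with cyclic loess and -0.07 with median centring (log2, against the wild-type mean). Null 2 was at -0.43, -0.42 and -0.54 in the same order of scalings. The genotype differences of Col6a1, Col6a2 and Col6a3 as deposited were -0.24 ± 0.18, -0.20 ± 0.16 and -0.34 ± 0.25 (log2, SE). Each kept its sign in all 12 alternatives run, down to -0.01, -0.02 and -0.003 without null 2. A second Col6a1 row differed in this respect: both null arrays were lower there, at 5.49 and 5.56 against 5.74 and 5.80 in wild type.

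Of the additional type VI chains, Col6a5 had the largest difference of any member. It was at 4.60 and 4.07 in the null and at 4.94 and 5.25 in wild type, with null 2 below the array median. The difference was -0.76 ± 0.23 (log2, SE, limma unadjusted p = 0.0248, adjusted p = 0.721), and with 1 array near background it is not exact. Without null 2 it was -0.50, and without null 1 it was -1.02. Col6a6 was at 5.96 and 5.82 in the null and at 5.96 and 5.84 in wild type, a difference of -0.01 that turned to 0.033 with quantile normalization and to 0.035 with cyclic loess. Col6a4 was below the median on every array.

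**Figure D3:**
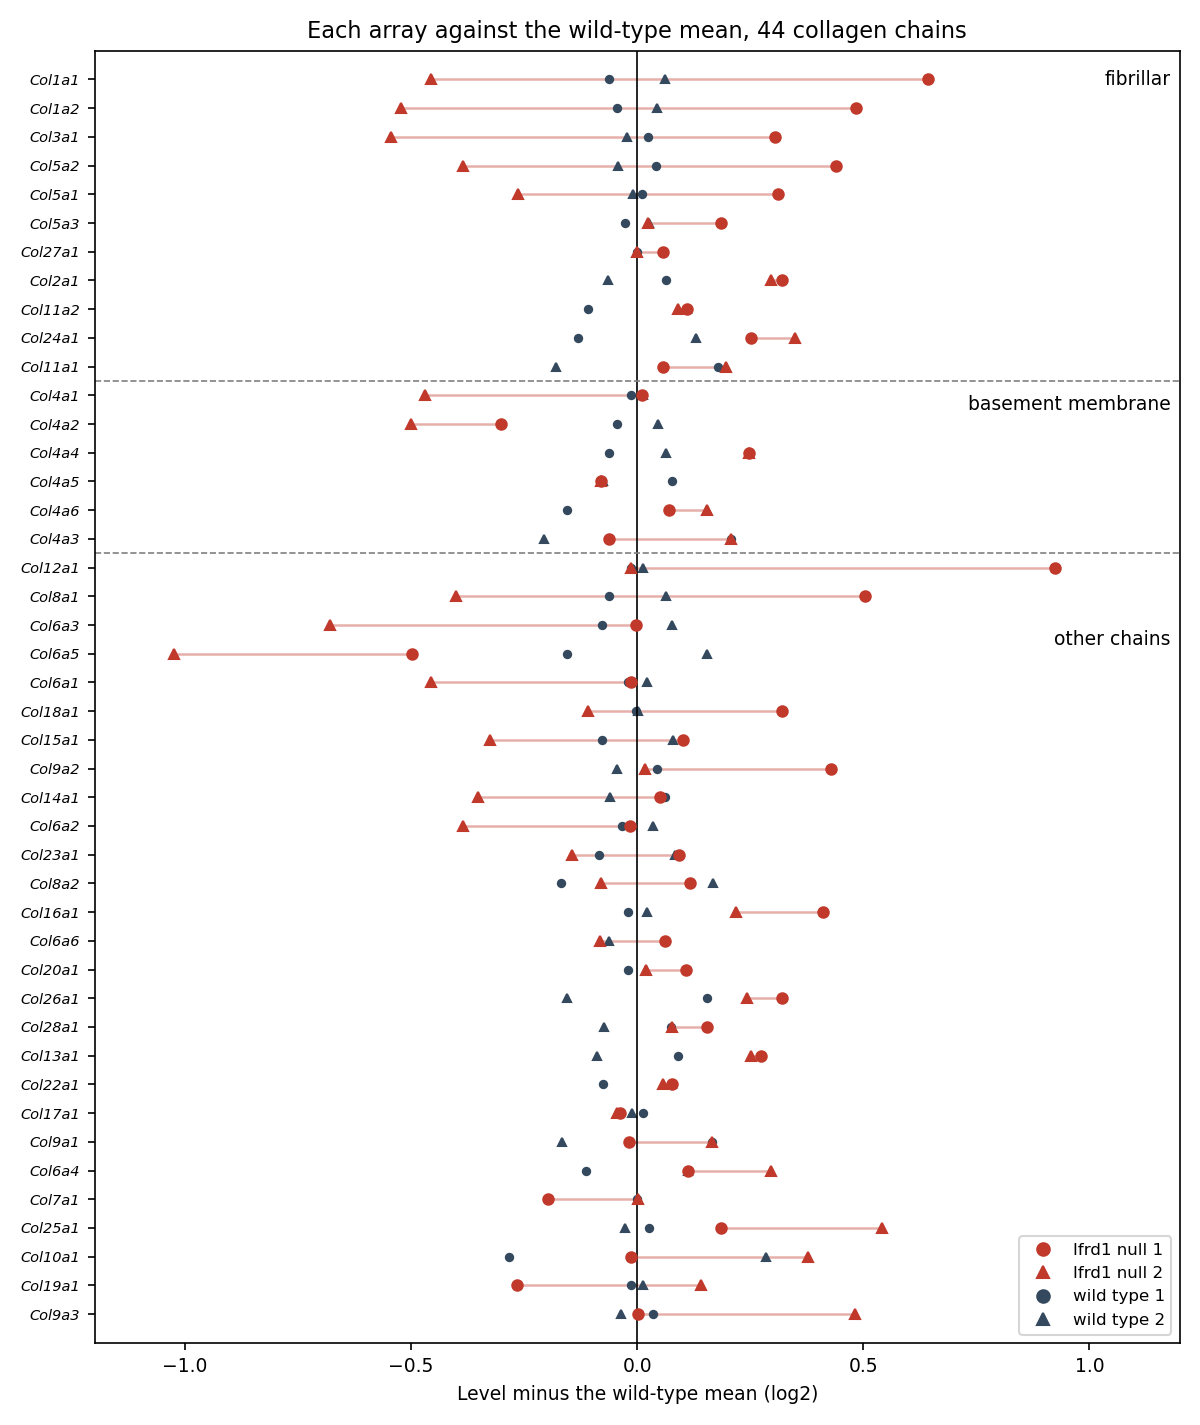
Level of each array minus the wild-type mean of the same gene (log2, horizontal axis) for all 44 collagen chain genes, with fibrillar chains on top, then basement membrane and other chains; red symbols are the Ifrd1 null arrays, joined by a line, and dark symbols the wild-type arrays. For Col1a1, Col1a2, Col3a1, Col5a1 and Col5a2 the red symbols lie on opposite sides of wild type, and for Col6a1, Col6a2 and Col6a3 only null 2 lies apart.

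Fibril-associated chains decorate the surface of type I and type II fibrils. Col12a1 stood out on 1 array, at 5.85 in null 1 and 4.92 in null 2, against 4.92 and 4.94 in wild type. Its difference of 0.46 ± 0.33 (log2, SE) rests on null 1. Col14a1, a chain of soft connective tissue fibrils, was at 7.63 and 7.23 in the null and at 7.64 and 7.52 in wild type, so that null 2 alone was lower.

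Col16a1 was higher in both null arrays, at 5.72 and 5.53 against 5.29 and 5.33 in wild type. The groups did not overlap, and the difference was 0.32 ± 0.12 (log2, SE, limma unadjusted p = 0.0512, adjusted p = 0.722). It ranged from 0.22 to 0.41 when any 1 array was left out. Col9a2, a type IX chain of cartilage fibrils, was at 5.83 and 5.42 in the null and at 5.45 and 5.36 in wild type.

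Chains of other families were mixed. Col8a1, a short-chain network collagen of vessel walls and injured tissue, had the array order of the type I chains, at 6.70 and 5.80 in the null and 6.13 and 6.26 in wild type. The multiplexins Col15a1 and Col18a1, which lie in basement membrane zones and whose ends release the fragments restin and endostatin, had that order too. Col15a1 was at 6.34 and 5.91 in the null and at 6.16 and 6.32 in wild type, and Col18a1 was at 5.78 and 5.36 in the null and at 5.46 and 5.46 in wild type. Col7a1, the anchoring fibril chain of stratified epithelia, was at 5.79 and 5.99 in the null and at 5.99 on both wild-type arrays.

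The transmembrane chains Col13a1 and Col25a1 were higher in both null arrays. Col13a1 was at 4.68 and 4.65 in the null and at 4.49 and 4.31 in wild type. Col25a1 was at 3.92 and 4.28 in the null and at 3.76 and 3.71 in wild type, with 1 of 4 arrays above its median, so its difference of 0.36 is not exact. Of the 27 other chains as a whole, 11 were lower in the null and 16 higher, and 4 were below the array median on all 4 arrays.

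Counted over the members, the order with null 1 above and null 2 below both wild-type arrays was found in 9 of 44 (8.28% of all genes had it), among them 5 of 11 fibrillar, 0 of 6 basement membrane and 4 of 27 other chains. The reverse order was found in 1 of 44 members and in 10.2% of all genes. This order of arrays was singled out after the values were seen. With the scalings tried it held for 8 to 14 members, beside 7.13% to 9.5% of all genes. Null 1 was above null 2 in 31 of 44 members (45.9% of all genes), and in 28 of the 32 members above the array median on all 4 arrays (49.8% of such genes). The null arrays were further apart than the wild-type arrays in 27 of 44 members and in 55.4% of all genes.

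Col1a1 and Col1a2 were at least 2-fold higher in null 1 than in null 2, as were 0.618% of all genes, and Col1a1 ranked 97 among the 22180 genes for that gap. The Col1a2 gap was 0.98 on the log2 scale with arrays centred on their medians and 0.99 with quantile normalization, just under 2-fold. On a linear scale, the summed signal of the fibrillar chains was 1.38 and 0.73 times the wild-type mean in null arrays 1 and 2, and 0.99 and 1.01 times that mean in the wild-type arrays. That sum is carried mainly by the brightest chains, Col1a1, Col1a2 and Col3a1. The median over the 11 fibrillar chains was 0.31 in null 1 and 0.00 in null 2 (log2, against the wild-type mean). For the type IV chains the sums were 0.94 and 0.82 times the wild-type mean in the null arrays, against 0.99 and 1.01 in wild type. Averaged over all 6 type I, III and V chains, Col5a3 included, the arrays were at 0.40 in null 1 and -0.36 in null 2 (log2, against the wild-type mean), and averaged over Col6a1, Col6a2 and Col6a3 they were at -0.01 and -0.51. With the scalings tried, the null 1 value of these type VI chains ranged from -0.07 to 0.09, and that of the 6 type I, III and V chains from 0.33 to 0.48. These chains were grouped by type with the values known, and the difference between the sets was not tested.

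**Figure D4:**
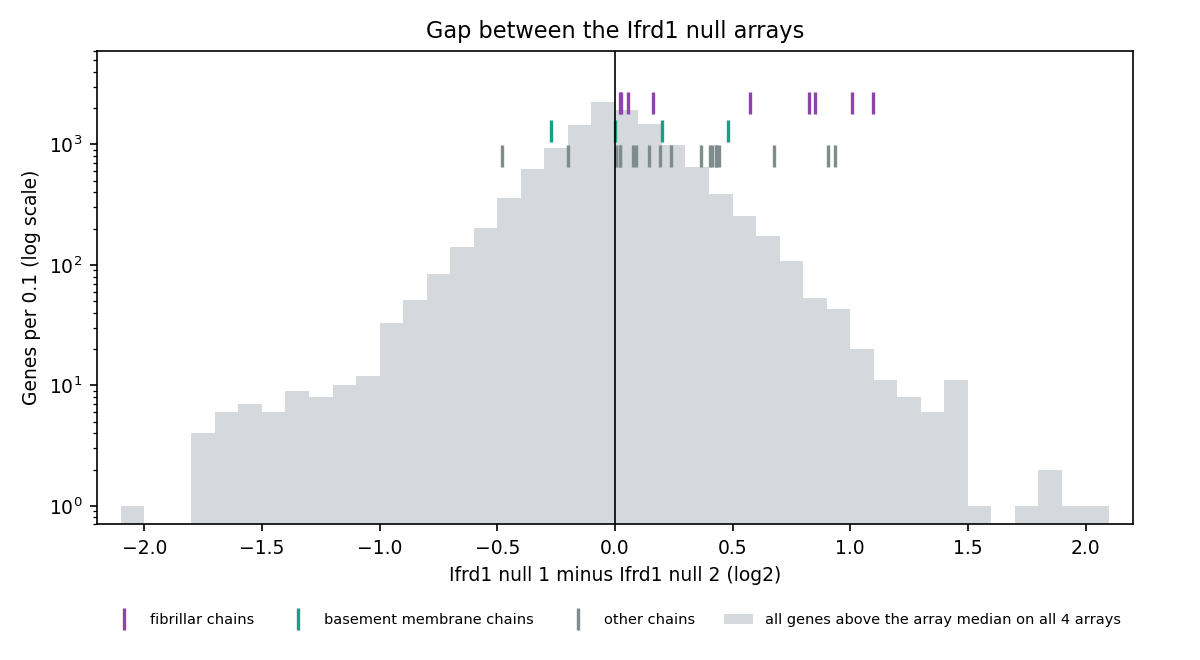
Distribution of the gap between the Ifrd1 null arrays (null 1 minus null 2, log2, horizontal axis) over the genes above the array median on all 4 arrays (grey bars, number of genes per bin on a log axis); coloured ticks, placed at an arbitrary height, mark the 32 collagen chains in that set. The fibrillar ticks on the far right are Col1a1 (1.10), Col1a2 (1.01), Col3a1 (0.85), Col5a2 (0.83) and Col5a1 (0.57).

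Genes that act on collagens were described from lists. Of 30 measured genes for collagen synthesis and crosslinking, 16 were lower in the null, the median difference was -0.02 on the log2 scale (0.02 with quantile normalization and with cyclic loess, -0.07 with arrays centred on their medians), and 0 passed in limma over all genes. At unadjusted p under 0.05 there were 0 lower and 1 higher (background 3.27%), Colgalt2, a collagen galactosyltransferase, at 4.33 and 4.33 in the null and 3.85 and 3.90 in wild type. Both wild-type arrays lay below their median, so this difference is not exact. P4hb, the beta subunit of prolyl 4-hydroxylase and also a general disulfide isomerase of the secretory pathway, was at 10.23 and 10.80 in the null and at 10.54 and 10.66 in wild type. Its order of arrays was the reverse of that of the type I chains. The order of the type I chains itself was found in 6 of 30 genes of the list (8.28% of all genes). Plod1, a lysyl hydroxylase, was lower in both null arrays, at 6.97 and 7.05 against 7.23 and 7.24 in wild type.

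Collagen receptors had a median of -0.14, with 9 of 12 lower and 11 of 12 above the array median on all 4 arrays. Of all genes above the median level, 67.3% were lower. In limma, 2 receptors were lower at unadjusted p under 0.05 and 0 passed the adjusted threshold. The background of lower genes was 3.63% of all genes, and 600 of the 11090 genes above the median level. Ddr2, a receptor tyrosine kinase that binds fibrillar collagen, was at 7.10 and 7.01 in the null and at 7.50 and 7.40 in wild type, a difference of -0.39 ± 0.11 (log2, SE). Adgrg1, an adhesion receptor that binds type III collagen, was at 8.28 and 8.08 in the null and at 8.45 and 8.65 in wild type. Itgb1, the beta subunit shared by the collagen-binding integrins, was at 9.11 and 8.86 in the null and at 9.14 and 9.20 in wild type. All 3 were lower in both null arrays, but Ddr2 and Adgrg1 were named for their small p. In the whole list 4 of 12 were, against 19.7% of all genes and 3226 of the 11090 genes above the median level. Another 1 of 12, the collagen uptake receptor Mrc2, had null 1 above and null 2 below both wild-type arrays.

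Basement membrane partners had a median of -0.17, with 14 of 16 lower. In limma, 3 were lower at unadjusted p under 0.05 and 0 passed the adjusted threshold. The background of lower genes was 3.63% of all genes, and 600 of the 11090 genes above the median level. Nid1, the linker between laminin and type IV collagen, was at 9.32 and 9.13 in the null and at 9.69 and 9.55 in wild type. Lama2, a laminin alpha chain, was at 6.70 and 6.62 in the null and at 7.07 and 7.01 in wild type. Smoc2, a matricellular protein, was at 5.62 and 6.03 in the null and at 6.70 and 6.51 in wild type. Lama2 and Smoc2 were named for their small p. In the whole list 7 of 16 were lower in both null arrays, against 19.7% of all genes. Of the 11090 genes above the median level, 3226 were lower in both null arrays. Of the 16 genes 15 were above the array median on all 4 arrays, and 67.3% of all genes above the median level were lower in the null.

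Matrix partners of collagen fibrils had a median of -0.19, with 12 of 19 lower and 0 past either threshold in limma. Bgn, a fibril-binding proteoglycan, was at 12.34 and 11.996 in the null and at 12.38 and 12.34 in wild type. Sparc, a collagen-binding matricellular protein, was at 10.07 and 9.85 in the null and at 10.29 and 10.18 in wild type, and Ogn at 9.07 and 8.75 in the null and 9.29 and 9.12 in wild type. In the list 17 of 19 were higher in null 1 than in null 2 (45.9% of all genes), with a median gap of 0.49. Null 1 above and null 2 below both wild-type arrays, the order of the type I chains, was found in 7 of 19 (8.28% of all genes). Among these were Eln, the elastic fibre protein elastin, and Fn1, the adhesive matrix protein fibronectin, both named after their values were seen. Eln was at 8.64 and 7.44 in the null and at 7.55 and 7.53 in wild type, a gap of 1.201 between the null arrays that was wider than that of Col1a1. Fn1 was at 10.56 and 9.65 in the null and at 10.13 and 10.21 in wild type.

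Regulators of collagen transcription, mainly the TGF-beta pathway and PDGF ligands, had a median of -0.01, with 9 of 17 lower. In limma, 1 was lower at unadjusted p under 0.05 (background 3.63%) and 0 passed the adjusted threshold. The array order of the type I chains was found in 8 of 17 (8.28% of all genes): Tgfb1, Tgfb3, Tgfbr1, Tgfbr2, Smad4, Smad7, Ski and Pdgfb. Pdgfa was at 6.91 and 6.85 in the null and at 7.14 and 7.19 in wild type. Smad3, a transducer of TGF-beta signals, was at 6.54 and 6.32 in the null and at 6.69 and 6.90 in wild type. Smad4, the common partner of the receptor-activated Smads, was at 8.603 and 8.34 in the null and at 8.50 and 8.601 in wild type, so that null 1 and wild type 2 were nearly level.

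**Figure D5:**
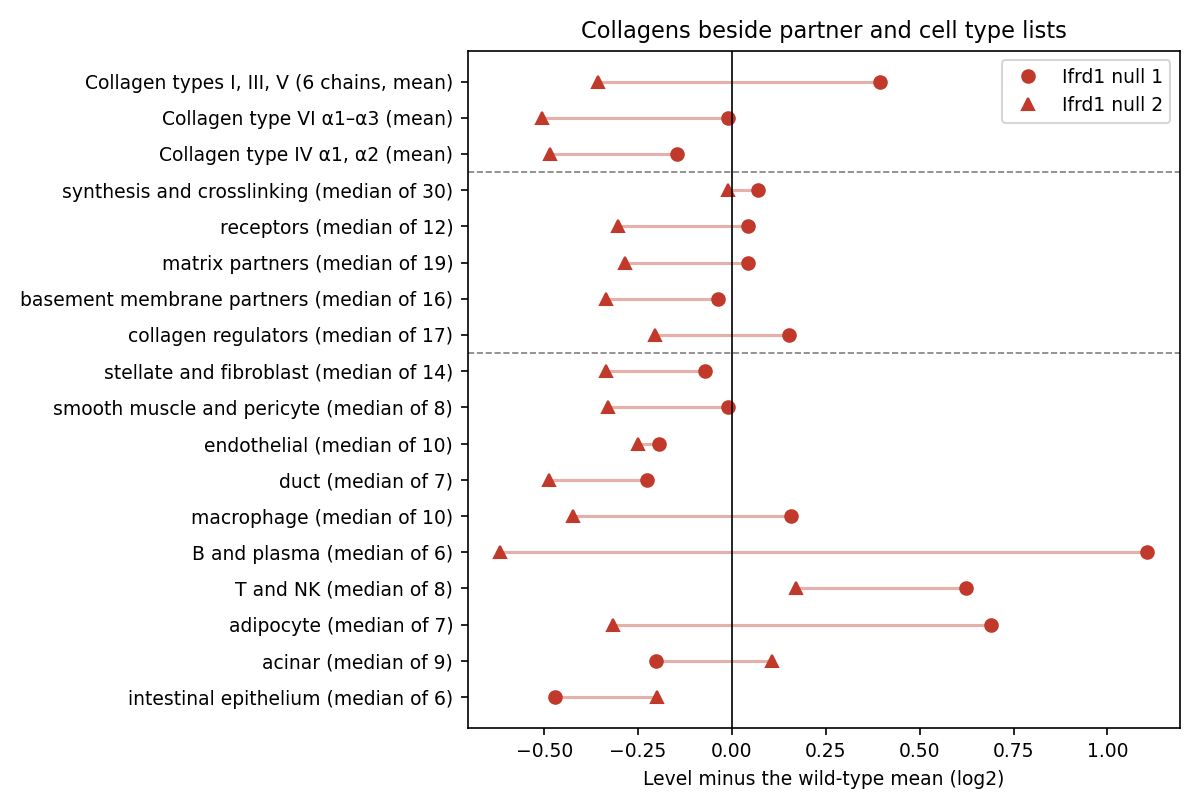
Level of Ifrd1 null arrays 1 (circles) and 2 (triangles) minus the wild-type mean (log2, horizontal axis) for 3 sets of collagen chains (mean over chains: all 6 of types I, III and V, Col6a1 to Col6a3, and Col4a1 with Col4a2), partner lists and cell type marker lists (median over the genes measured). The 6 type I, III and V chains are at 0.40 and -0.36, and the stellate cell and fibroblast markers at -0.07 and -0.34.

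Markers of several cell types moved with the gap between the null arrays, and those of others did not. In RNA from whole tissue, fewer cells of a type and less RNA per cell cannot be told apart. Null 1 was above null 2 in 45.9% of all genes. The counts were 7 of 10 for endothelial, 5 of 7 for duct and 5 of 5 for mesothelial markers. They were 2 of 6 for intestinal epithelium, 1 of 5 for islet and 1 of 4 for Schwann and nerve markers measured. All 14 stellate cell and fibroblast markers were higher in null 1 than in null 2, with a median gap of 0.27, and their summed linear signal was 0.96 and 0.78 times the wild-type mean in the null, against 1.03 and 0.97 in wild type. Dcn, Lum and Sparc are on that list and on the list of matrix partners. In null 1, 5 of the 14 markers were above the wild-type mean, and in null 2 0 of 14 were.

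Macrophage markers were higher in null 1 than in null 2 for 10 of 10 genes, with summed signals of 1.13 and 0.71 times the wild-type mean in the null, against 0.96 and 1.04 in wild type. B and plasma cell markers were higher for 6 of 6, with 2.46 and 0.63 in the null and 1.02 and 0.98 in wild type. Adipocyte markers were higher for 7 of 7, with 1.85 and 0.71 in the null and 0.87 and 1.13 in wild type. Acinar markers ran the other way, with 0 of 9 measured of 12 listed higher in null 1 and sums of 0.91 and 1.12 in the null against 1.00 and 1.00 in wild type.

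For lymphocytes of the T and NK lines, 8 of 8 markers had more signal in null 1 than in null 2. Their sums were 1.59 and 1.07 times the wild-type mean in the null and 0.89 and 1.11 in wild type. Only 3 of the 8 were above the array median on all 4 arrays. Their median absolute gap was 0.26 between the null arrays and 0.47 between the wild-type arrays (log2). Smooth muscle and pericyte markers were higher in null 1 for 8 of 8, at 0.94 and 0.75 times the wild-type mean in the null and 1.15 and 0.85 in wild type. Endothelial markers belong to cells that make type IV collagen. Their sums were 0.84 and 0.81 times the wild-type mean in the null and 1.02 and 0.98 in wild type. Of these markers 9 of 10 were lower in the null, and 9 of 10 were above the array median on all 4 arrays. Of all genes above that median on all 4 arrays, 64.5% were lower in the null. Intestinal epithelium markers stood highest in wild type 1, at 0.47 and 0.52 in the null against 1.42 and 0.58 in wild type. Only 1 of these 6 markers was above the array median on all 4 arrays and 3 were below it on all 4, so their sums may be background. No marker was listed at 0. The part of these cell types in the collagen values was not tested.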

How the data were processed

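The authors' deposited table gives 1 log2 value per array and transcript cluster; the log base was read from the values (0.218 to 13.9), and background correction, probe summary and normalization are not given in the sources used here. Of 41345 rows, 23521 had 1 gene symbol in the platform annotation, 1814 had several and 16010 none here. The 44 collagen genes came from 47 rows, and 1 further row that names Col6a1 with other genes was not used. All 44 matched a RefSeq table (GRCm38.p6), and 35 had a promoter sequence in it. No detection call was used.

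Groups were compared with limma 3.58.1 (lmFit, eBayes) in R 4.3.3 over all 22180 genes, Ifrd1 null minus wild type, two-sided, Benjamini-Hochberg adjusted, threshold 0.05. The fit was also run on simulated data with independent noise for each gene. The outcome of that run is not given and is not used for the results here. With 2 arrays against 2, an exact permutation test cannot go below p = 0.333 and none is reported. A p-value sets the group difference against a spread between these arrays that limma partly shares over all genes. The number of arrays limits the precision.

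The members and lists were chosen with earlier results of these data known. Lists are described by counts and medians, without a test. Named genes are Ifrd1, all fibrillar and type IV chains, the 10 brightest other chains and the 3 other chains with the smallest p in each direction, and of each partner list the brightest gene and the pair with the smallest p. Further genes (Col6a4, Col12a1, Mrc2, Eln, Fn1 and the regulators with the type I array order) were named after their values were seen. Alternatives were quantile normalization, median centring, cyclic loess, genes above the median level only, the mean over a gene's rows, the replicate number as a block, trend and robust eBayes, each array left out and, added after seeing the data, leaving out genes with identical values.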

Additional observations from a re-analysis of the deposited data

How the results depend on the processing

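With 2 arrays a group, leaving out a single array turned the sign of the difference for 16 of 31 named collagen chains. The share over all genes was not counted. No collagen chain passed the adjusted threshold in limma under any alternative that kept all 4 arrays. Over all genes 1 passed as reported, 4 with quantile normalization, 4 with cyclic loess, 5 with arrays centred on their medians, 5 with trend and robust eBayes, 5 without genes holding identical values, 0 among genes above the median level, and 0 to 0 with each array left out. The genes called were Uty, Xist, Kdm5d, Eif2s3y and Ifrd1 (adjusted p for Ifrd1 0.0313 with centring, 0.0419 with trend and 0.0211 without identical values). The replicate numbers are not shown to pair the mice: deviations of same-numbered arrays correlated at -0.04 over 22180 genes, and with the replicate number as a block 4 genes and 0 collagen chains passed. Genes at unadjusted p under 0.05 numbered 1532, and 884 among genes above the median level. Collagen chains at unadjusted p under 0.05 numbered 3, and 4 among genes above the median level. With arrays centred on their medians there were 2 chains, beside 1554 genes. Leaving out an array leaves 1 array in a group, so counts at this threshold are not compared for those fits.

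Medians of chains moved as follows (log2). Among genes above the median level the median of all chains was -0.011, of basement membrane chains -0.23 and of other chains -0.026. Basement membrane chains were at -0.054 with median centring and -0.32 without genes holding identical values. With each array left out, fibrillar chains ranged from 0.00 to 0.31 (0.31 without Ifrd1 null 2), basement membrane chains from -0.15 (without wild type 2) to 0.037, other chains from -0.010 (without wild type 1) to 0.093 and collagen synthesis genes from -0.017 to 0.071 (without Ifrd1 null 2).

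Of 31 named chains, 14 kept their sign in all 12 alternatives in which they had a value, 6 lower (Col4a2, Col4a5, Col6a1, Col6a2, Col6a3 and Col6a5) and 8 higher. Scaling turned 5: Col1a2 (0.047 with quantile normalization, 0.069 with cyclic loess), Col6a6 (0.033 and 0.035), and with median centring Col5a1 (-0.026), Col5a2 (-0.022) and Col27a1 (-0.021). Leaving out 1 array turned 16, whose ranges were -0.46 to 0.64 for Col1a1, -0.52 to 0.48 for Col1a2, -0.55 to 0.31 for Col3a1, -0.47 to 0.010 for Col4a1, -0.13 to 0.28 for Col4a3, -0.042 to 0.27 for Col4a6, -0.26 to 0.31 for Col5a1, -0.38 to 0.44 for Col5a2, -0.052 to 0.31 for Col11a1, -0.0098 to 0.21 for Col11a2, -0.35 to 0.052 for Col14a1, -0.40 to 0.50 for Col8a1, -0.33 to 0.10 for Col15a1, -0.20 to 0.0011 for Col7a1, -0.082 to 0.061 for Col6a6 and -0.11 to 0.32 for Col18a1. The cause of these changes was not tested beyond the array left out.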
